A study of Mus musculus with 18 samples.

Results

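The genes of motile cilia and of multiciliation were followed across mouse lung, as a set of 39 genes chosen by symbol. The members were found as the array probes whose annotated symbol was one of the 39. A probe was found for 30 of them, 42 probes in all, out of 25697 probes for 16593 named genes. Dnah9, Dnai2, Rsph4a, Lrrc23, Spef2, Cfap126, Tekt2, Tekt4 and Ak7 had no probe in the tables analysed here. Of the 30, Rfx3, Dnah11, Ropn1l and Spag17 were too dim to be tested: Dnah11 was detected on 2 of 12 lung arrays and the other three on 0. The remaining 26 were tested, 5 of 6 regulators and 21 of 33 axonemal and other ciliary genes, and 21 of the 26 were detected on all 12 lung arrays.

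The series holds 18 Illumina mouse bead arrays, which carry a probe for each transcript and report how brightly it lights up. The lung arrays held total lung RNA of male C57BL/6 mice, 8 to 12 weeks old, that were wild type (WT) or knockout (KO) for interleukin-4 (IL-4), a cytokine of type 2 immunity. For 4 days they were kept at 10% oxygen (hypoxia) or in room air (normoxia), which with the genotype gives 4 groups of 3 animals, called WT normoxia, WT hypoxia, KO normoxia and KO hypoxia. The other 6 arrays held pulmonary microvascular endothelial cells (PMVEC) cultured from female C57BL/6 mice 4 to 6 weeks old, treated for 24 h with vehicle or with recombinant IL-4 at 50 ng/mL, 3 samples each. The labels limit the knockout to no cell type or time, so absence of IL-4 before and during the exposure cannot be told apart. Whole lung holds many cell types, and in such samples fewer ciliated cells and less ciliary RNA per cell cannot be told apart.

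Motile cilia beat on the multiciliated cells of the airways and move mucus. Each cilium is built on an axoneme of microtubule doublets around a central pair, with outer and inner dynein arms as motors, radial spokes as regulators, and ruler and inner microtubule proteins as scaffolds. A cell becomes multiciliated when Mcidas, Myb and Ccno drive the production of many basal bodies, after which Foxj1 and the Rfx factors switch on the axonemal genes. Rfx factors bind a sequence called the X-box, and Foxj1 binds the forkhead motif.

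The X-box is the sequence that the Rfx factors among the regulators bind, so the promoters were searched for it. RefSeq promoters (GRCm38.p6, 250 bases before to 50 after the start site) were found for 33 of the 39 members. The X-box was searched on both strands as GTNNCC, then 0 to 3 further N, then NGNAAC. It was present in 17 of the 33 promoters (51.5%), against 1606 of 27025 genes in the promoter table (5.94%). The share was 15 of 28 among axonemal and other members (53.6%) and 2 of 5 among regulators. Of the other lists, dynein assembly factors had it in 5 of 9 promoters (55.6%), other motile cilia genes in 27 of 76 (35.5%) and intraflagellar transport and BBSome genes in 7 of 30 (23.3%). It was also in 2 of 4 promoters of fibroblast markers and 2 of 8 of general epithelial markers. Centriole amplification genes had it in 1 of 18 (5.56%), club cell markers in 0 of 11, and the remaining lists in 0% to 11.8%. The forkhead letters TGTTTAC, also searched on both strands, were in 4 of 33 member promoters (12.1%) against 4.05% of all genes. These shares describe letters in a window and carry no test.

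Shown first, with the X-box match in capitals, are the promoters of the 3 tested axonemal members with a match and the highest array level: Dynlrb2 (chr8:116504765-116505064, plus strand), 1110017D15Rik (chr4:41507715-41508014, minus strand) and Mns1 (chr9:72438279-72438578, plus strand). The promoter of Ccno (chr13:112987552-112987851, plus strand) was added after its values and its match were seen, as that of a regulator that rose in both genotypes. Each is written 5′ to 3′ on the strand of the gene.
Dynlrb2: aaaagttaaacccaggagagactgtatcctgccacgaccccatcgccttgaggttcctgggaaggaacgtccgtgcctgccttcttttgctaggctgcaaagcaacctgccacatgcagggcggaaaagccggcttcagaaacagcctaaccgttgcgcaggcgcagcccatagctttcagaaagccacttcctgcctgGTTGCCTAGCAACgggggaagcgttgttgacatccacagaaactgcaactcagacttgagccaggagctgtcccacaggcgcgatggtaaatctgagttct
1110017D15Rik: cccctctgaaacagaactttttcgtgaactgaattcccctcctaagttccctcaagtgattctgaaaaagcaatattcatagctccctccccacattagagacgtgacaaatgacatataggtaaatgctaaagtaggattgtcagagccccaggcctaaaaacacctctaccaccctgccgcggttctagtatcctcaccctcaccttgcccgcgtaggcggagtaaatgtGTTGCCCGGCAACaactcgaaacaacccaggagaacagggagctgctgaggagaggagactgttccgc
Mns1: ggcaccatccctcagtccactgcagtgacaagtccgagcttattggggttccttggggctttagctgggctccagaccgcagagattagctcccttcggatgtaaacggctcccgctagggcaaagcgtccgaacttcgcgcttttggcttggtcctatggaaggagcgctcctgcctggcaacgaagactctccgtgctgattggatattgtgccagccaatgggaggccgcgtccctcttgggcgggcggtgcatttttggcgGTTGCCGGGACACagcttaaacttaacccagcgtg
Ccno: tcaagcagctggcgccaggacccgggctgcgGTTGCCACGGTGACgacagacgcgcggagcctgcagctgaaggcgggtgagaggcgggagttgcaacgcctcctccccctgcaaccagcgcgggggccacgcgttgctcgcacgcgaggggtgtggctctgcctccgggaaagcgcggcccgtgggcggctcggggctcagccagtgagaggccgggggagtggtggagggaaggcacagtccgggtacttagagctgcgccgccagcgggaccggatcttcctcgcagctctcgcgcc

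Counted from the start site, the matches lay at -51 to -39 in Dynlrb2, -18 to -6 in 1110017D15Rik, 16 to 28 in Mns1 and -219 to -206 in Ccno. The other 5 tested members with a match are shown with 6 flanking bases, in the direction in which the motif reads, because their letters can be set against those above. They lie at chr4:34730216-34730229 (Cfap206), chr4:41569775-41569787 (Dnai1), chr8:110266956-110266969 (Hydin), chr1:69826867-69826880 (Spag16) and chr17:56831110-56831124 (Rfx2). For Rfx2 and Spag16 this is the strand of the gene, and for Cfap206, Dnai1 and Hydin it is the opposite strand.
Cfap206: agtcgcGTAACCGTGGAAACggaacg
Dnai1: gacgcgGTTACCCAGCAACcgacag
Hydin: ccatctGTTGCCACAGCAACcgcaga
Spag16: caacgcGTTGCCGTAGTAACtgcgga
Rfx2: gtaaccGTTGCCGGGCGCAACgccccg

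Signals are given as normalized log2 values, and a change is a difference of group means on that scale, with its standard error (SE) from limma. A gene passed at a Benjamini-Hochberg adjusted p under 0.05 over all 12571 genes tested, and fell or rose only in that sense. As a check of the genotype labels, Il4 lay between 7.25 and 8.26 on the 6 WT arrays and between 4.97 and 5.86 on the 6 KO arrays. The 3 arrays of KO hypoxia were uneven. Array KO hypoxia 1 stood apart in airway and muscle transcripts: the mean deviation of 13 club cell markers from their 12-array mean was -1.01 there against 0.13 and -0.33 on KO hypoxia 2 and 3, that of 8 goblet and basal cell markers was -1.59 against 0.64 and -0.61, and that of 14 cardiac and skeletal muscle genes was -2.90 against 0.57 and -0.68. KO normoxia 1 was highest of its group in goblet and basal cell markers, at 0.89, and 20 liver genes lay at 1.21 to 3.39 on the KO normoxia arrays and at 0.21 or below on the other arrays. Calls of members in the knockout that were lost without KO hypoxia 1 or KO normoxia 1 are given with and without these arrays.

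Ccno, a regulator of multiciliation, rose in lung after 4 days of hypoxia in both genotypes, and Myb rose in wild type. A gene had to be detected on 3 arrays to be tested, and Mcidas met this through the hypoxia arrays alone. It is therefore left out of the counts here and described on its own. Of the other 4 tested regulators, each detected on 3 or more normoxia and 3 or more hypoxia arrays, 2 passed as higher in wild type (Ccno and Myb), against 7.22% of the 11754 genes so detected. In the knockout 1 of the 4 did (Ccno), against 4.68%. Foxj1 and Rfx2 passed in no lung comparison.

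Ccno, the cyclin needed for the amplification of basal bodies, read 7.98, 8.01 and 7.62 (wild type) and 7.12, 7.57 and 7.74 (knockout) in room air and 10.56, 10.60 and 10.17 (wild type) and 9.45, 9.71 and 10.08 (knockout) under hypoxia. All hypoxia arrays lay above all normoxia arrays, and the KO hypoxia arrays lay below those of WT hypoxia. The rise was 2.57 (SE 0.20, adjusted p = 9.64e-06), or 5.94-fold, in wild type and 2.27 (SE 0.20, adjusted p = 2.62e-05), or 4.84-fold, in the knockout.

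Mcidas, an early coactivator of the programme, read 4.62, 4.77 and 4.70 (wild type) and 4.94, 4.68 and 4.73 (knockout) in room air and 6.57, 6.50 and 6.56 (wild type) and 5.75, 6.15 and 5.94 (knockout) under hypoxia. It was detected on every hypoxia array and on no normoxia array, so it entered the test only through the hypoxia arrays and its rise is a lower bound. It was at least 2.13-fold higher under hypoxia in wild type (means 6.54 and 4.69, adjusted p = 3.65e-06) and at least 1.55-fold higher in the knockout (means 5.95 and 4.78, adjusted p = 8.66e-05). The bound sets the brighter group against the lowest signal detected on the arrays of the dimmer group. Mcidas and Ccno are neighbours on chromosome 13, with 0 protein-coding genes between them in the RefSeq table.

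Myb, a transcription factor of early multiciliated cells and of blood progenitors, read 7.85, 7.38 and 8.41 in WT normoxia and 9.16, 9.32 and 9.07 in WT hypoxia. The WT groups did not overlap, with a rise of 1.30 (SE 0.24, adjusted p = 0.00397). In the knockout it read 8.32, 8.48 and 8.27 in normoxia and 8.18, 8.79 and 8.95 in hypoxia, groups that overlapped (change 0.29, SE 0.24, adjusted p = 0.554). A second Myb probe was detected on 3 lung arrays and changed by 0.18 in wild type (adjusted p over all probes 0.600).

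Foxj1, the forkhead factor that switches on motile cilia genes, read 6.91, 6.87 and 6.93 (wild type) and 6.54, 6.89 and 6.72 (knockout) in room air and 7.04, 7.09 and 6.93 (wild type) and 6.47, 6.94 and 6.73 (knockout) under hypoxia. The WT hypoxia values lay just above those of WT normoxia, and the KO groups overlapped. Its change was 0.12 in wild type (SE 0.13, adjusted p = 0.643) and -0.00 in the knockout (SE 0.13, adjusted p = 0.991). Rfx2, an X-box binding factor, read 9.92, 10.08 and 10.41 (wild type) and 9.85, 9.94 and 10.24 (knockout) in room air and 10.05, 10.17 and 10.23 (wild type) and 10.10, 9.92 and 9.65 (knockout) under hypoxia. All 4 groups of Rfx2 overlapped, with changes of 0.02 in wild type and -0.12 in the knockout (adjusted p = 0.964 and 0.738).

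For none of the 4 regulators detected in both conditions did the difference between the hypoxia effects of the genotypes pass. It was -1.02 for Myb (SE 0.34, adjusted p = 0.213), -0.30 for Ccno (SE 0.29, adjusted p = 0.745), -0.12 for Foxj1 and -0.13 for Rfx2 (adjusted p = 0.864 and 0.873). The passing of Myb in wild type and not in the knockout is therefore not a shown difference between them. No such difference is given for Mcidas, whose rise has only a lower bound in each genotype.

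**Figure D1:**
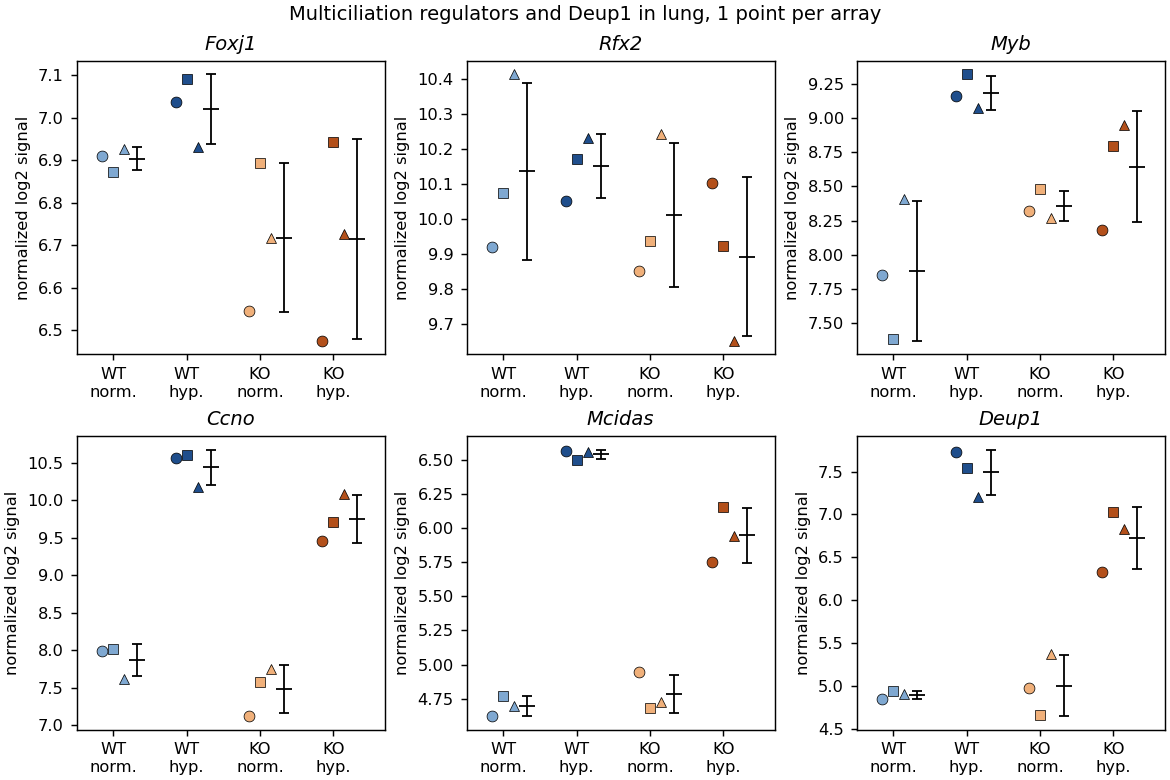
Normalized log2 signal (y axis, a separate range per panel) of 5 regulators and Deup1 on each lung array by group (x axis), with circle, square and triangle for arrays 1, 2 and 3 of a group and the bar for mean and SD (n = 3). Ccno, Mcidas and Deup1 lie higher on the 6 hypoxia arrays than on the 6 normoxia arrays, while Foxj1 and Rfx2 stay within less than 1 log2 unit.

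The genes of centriole amplification, the step that Mcidas and Ccno control, were counted beside them. Of 14 tested genes of this list, Deup1, Foxn4, Gmnc and Stil were not detected on 3 or more arrays of each condition and are left out of its counts. Like Mcidas, Deup1, Foxn4 and Stil met the detection filter through the hypoxia arrays, where they were higher. Their adjusted p-values below are therefore description and no separate support for a rise. Of the other 10, 2 passed as higher in wild-type hypoxia (Plk4 and Cby1), and in knockout hypoxia 1 passed as higher (Plk4) and 1 as lower (Fank1). Among the 11754 genes so detected, 7.22% passed as higher in wild type, and 4.68% as higher and 3.63% as lower in the knockout. The median change of the 10 was 0.06 in wild type and 0.05 in the knockout, beside -0.00 and 0.03 over those genes. Deup1, the scaffold of the deuterosome on which basal bodies multiply, read 4.86, 4.95 and 4.91 (wild type) and 4.98, 4.67 and 5.38 (knockout) in room air and 7.72, 7.55 and 7.20 (wild type) and 6.33, 7.03 and 6.83 (knockout) under hypoxia. No normoxia array reached the lowest hypoxia array. Deup1 was at least 4.12-fold higher in WT hypoxia (adjusted p = 1.05e-05) and differed by 1.72 in the knockout (SE 0.21, adjusted p = 0.000236). In KO normoxia it was detected on 1 of 3 arrays, so the knockout value is measured against a group mostly at background.

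Stil, a centriole assembly protein, was detected on no normoxia array and was at least 2.47-fold higher in WT hypoxia (adjusted p = 1.11e-05) and at least 1.75-fold higher in KO hypoxia (adjusted p = 0.000236). Plk4, the kinase that starts centriole duplication, rose by 1.62 in wild type and by 1.36 in the knockout. Foxn4, a forkhead factor of multiciliated cells in Xenopus, was at least 1.95-fold higher in wild type and at least 1.42-fold higher in the knockout, where the call was lost without KO normoxia 1 (adjusted p = 0.0748). Cby1, a basal body protein, rose by 0.75 in wild type, and Fank1 fell by 1.00 in the knockout (adjusted p = 0.102 without both KO hypoxia 1 and KO normoxia 1). Gmnc, which acts before Mcidas, was detected on 5 arrays and did not pass, and Trp73 was too dim to be tested. Plk4 and Stil also serve dividing cells. Of 11 cell cycle genes, 9 rose in wild type and 11 in the knockout, against 7.48% and 4.96% of all genes. Their mean deviation was -0.99 to -0.75 on normoxia arrays and 0.65 to 1.07 on hypoxia arrays. The part of dividing cells in the levels of Ccno, Myb, Plk4 and Stil was not tested.

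Some axonemal and other ciliary genes passed as higher under hypoxia in wild type, and some passed as lower under hypoxia in the knockout. Of the 21 tested, 2 did both, Tekt1 and Fsip1. In WT hypoxia 6 of the 21 tested were higher and 0 lower at adjusted p under 0.05, against 7.48% and 4.32% of all genes, and their groups did not overlap for 11, all higher, against 15.6% of all genes. In KO hypoxia 0 were higher and 11 lower, against 4.96% and 3.82% of all genes, and 13 did not overlap, all lower, against 12.1% of all genes. Dnah5 and Ccdc40 were not detected on 3 or more arrays of each condition, and Dnah5 met the filter only through the KO normoxia arrays, its highest group. Over the other 19, 6 were higher and 0 lower in wild type, against 7.22% and 4.39% of the genes so detected, and 0 were higher and 10 lower in the knockout, against 4.68% and 3.63%. The count in the knockout changed when single arrays were left out: without KO hypoxia 1, 4 of the 26 tested members were lower. Over all genes, calls in either direction then numbered 646 in place of 1104. The median change over the 21 was 0.43 in wild type and -0.61 in the knockout, beside -0.00 and 0.03 over all genes tested. The mean was higher with hypoxia in wild type and lower with hypoxia in the knockout for 18 of the 21, a pattern that 15.9% of all genes shared. The 2 genotypes' hypoxia comparisons share no arrays.

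**Figure D2:**
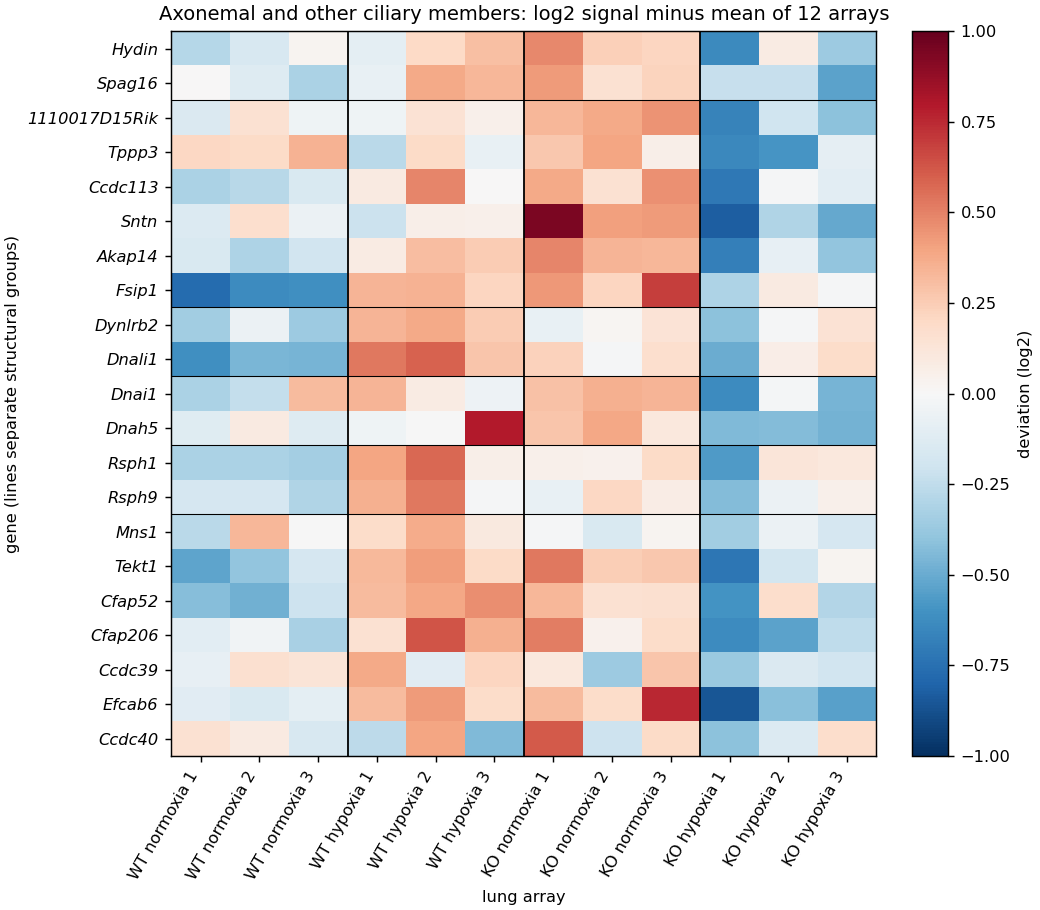
Log2 signal minus the 12-array mean (colour) of the 21 tested axonemal and other ciliary genes (y axis, grouped by structure) on each lung array (x axis, vertical lines between groups). WT normoxia and KO hypoxia columns are mostly blue and WT hypoxia and KO normoxia columns mostly red, and KO hypoxia 1 is the darkest blue column, the lowest array of its group in 19 of 21 genes.

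Among outer dynein arm genes, 2 of 5 were tested, and Dnai1 was detected on every array. Dnai1, an intermediate chain of the arm, read 8.25, 8.31 and 8.30 on the KO normoxia arrays and 7.33, 7.94 and 7.49 on the KO hypoxia arrays, against 7.64, 7.72 and 8.27 in WT normoxia and 8.30, 8.04 and 7.91 in WT hypoxia. Its KO hypoxia arrays lay below all KO normoxia arrays, and the WT groups overlapped. The change was -0.70 in the knockout (SE 0.19, adjusted p = 0.0397) and 0.20 in wild type (adjusted p = 0.556). The knockout call was lost without KO hypoxia 1 (-0.57, adjusted p = 0.158) and without KO normoxia 1 (-0.72, adjusted p = 0.0944). A second Dnai1 probe, detected on 11 arrays, gave -0.64 in the knockout and -0.24 in wild type, passing in neither (adjusted p over all probes 0.132 and 0.582). Dnah5, a motor heavy chain of the arm, was detected on all 3 KO normoxia arrays and on no KO hypoxia array and was at least 1.14-fold lower in the latter (means 5.57 and 4.86, adjusted p = 0.0372). It was detected on 5 lung arrays in all, and since it was tested only through its higher group it is not among the 10 counted above. Without KO hypoxia 1 and without KO normoxia 1 its adjusted p was 0.0995 and 0.103.

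The other dynein chains, Dnali1 and Dynlrb2, passed in wild type and not in the knockout, and the difference between the genotypes did not pass (adjusted p = 0.0679 and 0.160). Dnali1, a light intermediate chain of inner arms, read 7.82, 7.98 and 7.97 (wild type) and 8.66, 8.42 and 8.60 (knockout) in room air and 8.96, 9.03 and 8.71 (wild type) and 7.94, 8.50 and 8.62 (knockout) under hypoxia. The WT groups were well apart, the KO groups overlapped, and the rise in wild type was 0.98 (SE 0.17, adjusted p = 0.00256). Dynlrb2, a light chain whose promoter is shown above, read 11.68, 11.97 and 11.67 (wild type) and 11.95, 12.05 and 12.17 (knockout) in room air and 12.37, 12.40 and 12.28 (wild type) and 11.62, 12.01 and 12.17 (knockout) under hypoxia. It rose by 0.58 in wild type (SE 0.15, adjusted p = 0.0230), with WT groups apart and KO groups overlapping. That call was lost on leaving out each of 4 arrays in turn.

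Of the radial spoke genes, Rsph1 and Rsph9 were tested. Rsph1, a spoke head protein, read 10.26, 10.26 and 10.24 (wild type) and 10.63, 10.62 and 10.77 (knockout) in room air and 10.97, 11.15 and 10.64 (wild type) and 10.01, 10.70 and 10.69 (knockout) under hypoxia. WT hypoxia lay above WT normoxia on every array, by 0.67 (SE 0.18, adjusted p = 0.0323), and in the knockout the change was -0.21 (adjusted p = 0.579). The wild-type call was lost on leaving out each of 5 arrays in turn. Rsph9, of the same spoke head, differed by 0.50 in wild type (adjusted p = 0.0626) and by -0.22 in the knockout (adjusted p = 0.499), neither passing.

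Of the central pair genes, Spag16 passed in the knockout. Spag16 read 6.85, 6.58 and 6.64 on the KO normoxia arrays and 6.19, 6.19 and 5.89 on the KO hypoxia arrays, with 6.43, 6.29 and 6.11 in WT normoxia and 6.35, 6.80 and 6.75 in WT hypoxia. The KO groups did not overlap and the fall was 0.60 (log2 change -0.60, SE 0.15, adjusted p = 0.0270). A second Spag16 probe, also detected on 12 arrays, changed by -0.07 (adjusted p over all probes 0.882), so the probes disagree. The call was lost without KO hypoxia 1 (-0.65, adjusted p = 0.0552) and without KO normoxia 1 (-0.52, adjusted p = 0.108). Hydin, a large central pair protein, read 8.10, 7.85 and 7.83 on the KO normoxia arrays, 6.98, 7.70 and 7.25 on the KO hypoxia arrays, 7.33, 7.45 and 7.64 in WT normoxia and 7.52, 7.81 and 7.92 in WT hypoxia. Its KO hypoxia arrays lay below those of KO normoxia, but the change of -0.62 missed the threshold (SE 0.18, adjusted p = 0.0509).

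Of 7 tested ruler and inner microtubule genes, 2 rose in wild type (Cfap52 and Tekt1) and 3 fell in the knockout (Efcab6, Cfap206 and Tekt1). Efcab6, an EF-hand protein, read 5.81, 5.77 and 5.83 (wild type) and 6.24, 6.11 and 6.68 (knockout) in room air and 6.24, 6.35 and 6.11 (wild type) and 5.07, 5.51 and 5.39 (knockout) under hypoxia. Each group lay apart from the others except that WT hypoxia and KO normoxia overlapped, and in KO hypoxia it was detected on 1 of 3 arrays. The knockout change was -1.02 (SE 0.16, adjusted p = 0.00137) and the wild-type change 0.43 (adjusted p = 0.102). A second Efcab6 probe, detected on 5 arrays, gave -0.69 in the knockout (adjusted p over all probes 0.159).

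Cfap52, a protein inside the doublet microtubules, read 7.56, 7.51 and 7.78 (wild type) and 8.32, 8.14 and 8.15 (knockout) in room air and 8.31, 8.38 and 8.45 (wild type) and 7.39, 8.16 and 7.70 (knockout) under hypoxia. WT hypoxia was above WT normoxia throughout, by 0.76 (SE 0.17, adjusted p = 0.0114), while KO hypoxia 2 overlapped with KO normoxia (change -0.45, adjusted p = 0.131). Cfap206, which sits at the base of a radial spoke, read 7.42, 7.50 and 7.21 (wild type) and 8.04, 7.57 and 7.72 (knockout) in room air and 7.68, 8.16 and 7.89 (wild type) and 6.90, 6.99 and 7.28 (knockout) under hypoxia. Both pairs of groups were apart, in opposite directions, and the fall in the knockout passed (log2 change -0.72, SE 0.16, adjusted p = 0.0164) while the wild-type change of 0.54 did not (adjusted p = 0.0538). The knockout call was lost without KO hypoxia 1 (-0.64, adjusted p = 0.0752) and without KO normoxia 1 (-0.59, adjusted p = 0.0697).

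Tekt1, a tektin filament protein, passed in both genotypes with opposite sign, at 0.67 in wild type (SE 0.18, adjusted p = 0.0280) and -0.64 in the knockout (SE 0.18, adjusted p = 0.0425). A second Tekt1 probe, also detected on 12 arrays, passed in neither, at 0.56 and -0.48 (adjusted p over all probes 0.134 and 0.255). The knockout call was lost without KO hypoxia 1 (-0.42, adjusted p = 0.152) and without KO normoxia 1 (-0.55, adjusted p = 0.156). In all, 9 of the 12 lung arrays ended the call when left out in turn, among them WT arrays outside the comparison. Mns1, another inner microtubule protein, read 9.21, 9.81 and 9.47 (wild type) and 9.46, 9.32 and 9.51 (knockout) in room air and 9.66, 9.85 and 9.58 (wild type) and 9.13, 9.42 and 9.31 (knockout) under hypoxia. Its groups overlapped in both hypoxia comparisons and its changes were 0.20 and -0.14 (adjusted p = 0.463 and 0.658). Ccdc39 and Ccdc40, the molecular ruler of the axoneme, changed by 0.09 and -0.13 in wild type and by -0.24 and -0.32 in the knockout, none passing. Ccdc40 was detected on 3 of 12 arrays, none of them of WT normoxia or KO hypoxia, so its changes involve a group at background.

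The 6 other ciliary proteins tested gave 5 falls in the knockout and 1 rise in wild type. Sntn (sentan), a protein of the ciliary tip, read 10.63, 10.10 and 10.11 on the KO normoxia arrays and 8.86, 9.39 and 9.18 on the KO hypoxia arrays, against 9.55, 9.86 and 9.63 in WT normoxia and 9.47, 9.75 and 9.74 in WT hypoxia. KO normoxia was the highest group and KO hypoxia the lowest, with the WT groups between them and overlapping. It fell in the knockout with a log2 change of -1.14 (SE 0.18, adjusted p = 0.00139), and a second Sntn probe gave -0.86 (adjusted p over all probes 0.0110).

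1110017D15Rik, whose X-box promoter is shown above, read 10.84, 11.14 and 10.94 (wild type) and 11.32, 11.36 and 11.43 (knockout) in room air and 10.94, 11.12 and 11.03 (wild type) and 10.32, 10.78 and 10.57 (knockout) under hypoxia. The knockout groups were apart and the wild-type groups overlapped, with a knockout change of -0.81 (SE 0.13, adjusted p = 0.00218), and its 2 further probes gave -0.67 and -0.66. Akap14, a kinase anchor of cilia, read 8.95, 8.79 and 8.91 (wild type) and 9.58, 9.44 and 9.43 (knockout) in room air and 9.18, 9.40 and 9.35 (wild type) and 8.42, 9.02 and 8.70 (knockout) under hypoxia. It was higher on all WT hypoxia than WT normoxia arrays without passing (change 0.43, adjusted p = 0.0749) and fell in the knockout (log2 change -0.77, SE 0.14, adjusted p = 0.00500).

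Tppp3, a tubulin polymerization protein, read 10.81, 10.79 and 10.94 (wild type) and 10.86, 10.99 and 10.65 (knockout) in room air and 10.33, 10.79 and 10.52 (wild type) and 9.95, 10.01 and 10.50 (knockout) under hypoxia. Its wild-type change of -0.30 did not pass (adjusted p = 0.295), the KO groups were apart, and it fell in the knockout (log2 change -0.68, SE 0.17, adjusted p = 0.0234). That call was lost without KO hypoxia 1 (-0.58, adjusted p = 0.102) and without KO normoxia 1 (-0.67, adjusted p = 0.0727). Ccdc113, a coiled-coil protein of cilia, ranged from 9.31 to 10.51 over the 12 arrays, with KO groups apart and a knockout change of -0.61 that missed the threshold (adjusted p = 0.0640).

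Fsip1, a fibrous sheath interacting protein, read 5.31, 5.45 and 5.47 (wild type) and 6.52, 6.30 and 6.77 (knockout) in room air and 6.42, 6.43 and 6.30 (wild type) and 5.78, 6.17 and 6.07 (knockout) under hypoxia. WT hypoxia lay above WT normoxia and KO hypoxia below KO normoxia on every array. The change was 0.97 in wild type (SE 0.14, adjusted p = 0.000831) and -0.52 in the knockout (SE 0.14, adjusted p = 0.0384). The knockout call was lost without KO hypoxia 1 (-0.41, adjusted p = 0.159) and without KO normoxia 1 (-0.53, adjusted p = 0.0961).

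**Figure D3:**
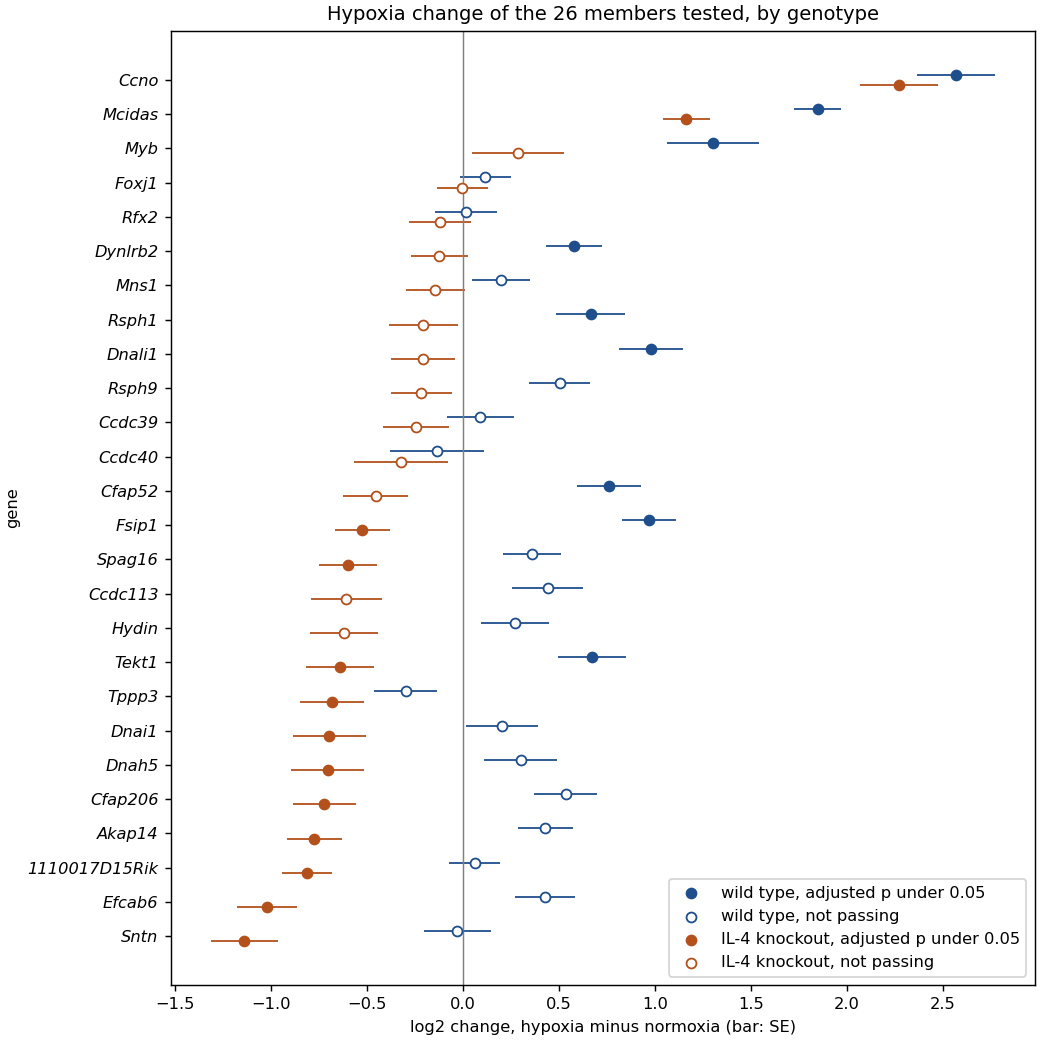
Log2 change with hypoxia (x axis, bars show SE) of each of the 26 tested members (y axis) in wild type (blue) and IL-4 knockout (orange), filled where the adjusted p is under 0.05. Ccno and Mcidas rise in both genotypes, while the axonemal genes lie mostly right of 0 in wild type and all left of 0 in the knockout. Mcidas, Dnah5 and Ccdc40 are drawn at fitted values although 1 of the groups compared had no array with detection.

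Tested as a difference of the hypoxia effects, knockout minus wild type, 1 of the 26 members passed, against 0.0159% of all genes, which is 2 of 12571. That member was Fsip1, with a difference of -1.49 (SE 0.20, adjusted p = 0.0415). Over the 23 members detected on 3 or more arrays of each condition and of each genotype, which leaves out Mcidas, Dnah5 and Ccdc40, all differences were negative, from -1.49 to -0.12, with a median of -0.90 beside 0.03 over the genes so detected. An unadjusted p under 0.05 was reached by 17 of the 23, as by 1564 of all 12571 genes. The next smallest adjusted p-values were 0.0630 for Efcab6 (difference -1.45), and 0.0660 each for Tekt1 (-1.31), Cfap206 (-1.26), Cfap52 (-1.22) and Akap14 (-1.21). Over the alternatives tried, the difference of Fsip1 ranged from -1.61 to -0.81 and its adjusted p from 0.0204 to 0.109. The call was lost on leaving out any one array except WT normoxia 3, KO hypoxia 1 or KO hypoxia 2.

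In room air some axonemal genes were higher in the knockout than in wild type. This comparison shares the WT normoxia arrays with the wild-type hypoxia effect and the KO normoxia arrays with the knockout effect, so its values are set beside theirs and are no separate evidence. Of the 21 tested, 4 passed as higher and 0 as lower, against 4.09% and 2.96% of all genes (also 4 of the 19 without Dnah5 and Ccdc40), and 15 did not overlap, all higher, against 12.4% of all genes. Fsip1 was higher by 1.12 (SE 0.14, adjusted p = 0.00149), Tekt1 by 0.71 (SE 0.18, adjusted p = 0.0324), Dnali1 by 0.64 (SE 0.17, adjusted p = 0.0378) and Akap14 by 0.60 (SE 0.14, adjusted p = 0.0259). No regulator passed, the changes of the 5 tested running from -0.39 for Ccno to 0.47 for Myb. Without WT normoxia 1, WT normoxia 2, KO normoxia 1 or KO normoxia 2, 1 member passed in place of 4, in each case Fsip1.

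Between the genotypes under hypoxia no member passed. All 24 members detected on 3 or more arrays of each genotype had a lower mean in KO hypoxia than in WT hypoxia, with differences of -0.91 to -0.26 on the log2 scale. Of the 26 tested, 18 did not overlap, all lower, against 6.33% of all genes. In limma 0 passed (lowest adjusted p = 0.0736, Efcab6), in a comparison in which 0.0557% of all genes passed, although 23 of the 24 had an unadjusted p under 0.05, as did 945 of 12571 genes. The difference for Efcab6 was -0.91 (SE 0.16), for Cfap206 -0.85 (SE 0.16, adjusted p = 0.104), for Ccno -0.69 (SE 0.20, adjusted p = 0.305) and for Mcidas -0.59 (SE 0.12, adjusted p = 0.133).

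Array KO hypoxia 1 was the lowest of its group for 19 of the 21 axonemal genes, as for 31.6% of all genes. The mean deviation of the 21 genes was -0.55 on that array and -0.14 and -0.20 on the other KO hypoxia arrays, against 0.15 to 0.33 in KO normoxia, 0.15 to 0.32 in WT hypoxia and -0.23 to -0.13 in WT normoxia. Without KO hypoxia 1, 4 members passed as lower in the knockout in place of 11 and the median change over the tested members was -0.33 in place of -0.49. Without KO normoxia 1 the count was also 4, without KO normoxia 2 or without KO hypoxia 3 it was 7, and without both KO hypoxia 1 and KO normoxia 1 it was 3. Calls over all genes, in either direction, fell as well, from 1104 to 646 without KO hypoxia 1. They numbered 697 without KO normoxia 1 and 453 without both. Efcab6, Sntn, Akap14 and 1110017D15Rik passed on leaving out each array in turn. In wild type 6 to 11 members passed as higher on leaving out each array, while all genes called numbered 890 to 1811, against 1483. Dynlrb2, Rsph1 and Tekt1 were each lost without WT normoxia 1, WT hypoxia 1 or WT hypoxia 2. Rsph1 and Tekt1 were also lost without WT normoxia 2, and Rsph1 and Dynlrb2 without WT normoxia 3.

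Markers of neighbouring airway cells were read beside the ciliary genes. Of 13 club cell markers 0 rose and 3 fell in each genotype's hypoxia comparison. The shares of all genes that fell were 4.32% in wild type and 3.82% in the knockout. Gsta3 changed by -0.80 in wild type and -1.07 in the knockout. The mean deviation of the 13 spanned 0.10 to 0.17 in WT normoxia and -0.30 to 0.35 in WT hypoxia. In the knockout it spanned -0.04 to 0.41 in normoxia and -1.01 to 0.13 in hypoxia. Of 8 goblet and basal cell markers, Krt14 and Muc5ac were not detected on 3 or more arrays of each condition and are not counted. Of the other 6, 1 passed as higher and 0 as lower in wild type, against 7.22% and 4.39% of the genes so detected. In the knockout 1 passed as higher and 0 as lower, against 4.68% and 3.63%. Negative changes numbered 3 of the 6 in wild type (median 0.44) and 4 of the 6 in the knockout (median -0.83). Agr2, of secretory cells, rose by 2.82 in wild type (SE 0.32, adjusted p = 0.000122) and by 1.28 in the knockout (SE 0.32, adjusted p = 0.0263), and Muc5ac, a mucin detected on 1 of 3 WT normoxia arrays, differed by 0.70 in wild type (adjusted p = 0.0138). Bpifa1, a secreted airway protein, had the most negative change in both genotypes without passing, at -1.02 in wild type (adjusted p = 0.770) and -3.57 in the knockout (adjusted p = 0.277). The mean deviation of all 8 goblet and basal cell markers spanned -0.31 to 0.96 in WT hypoxia and -1.59 to 0.64 in KO hypoxia. The share of large airway in each piece of lung, and its part in the levels of the ciliary genes, was not tested. The 9 general epithelial markers spanned -0.17 to 0.16 over all arrays.

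**Figure D4:**
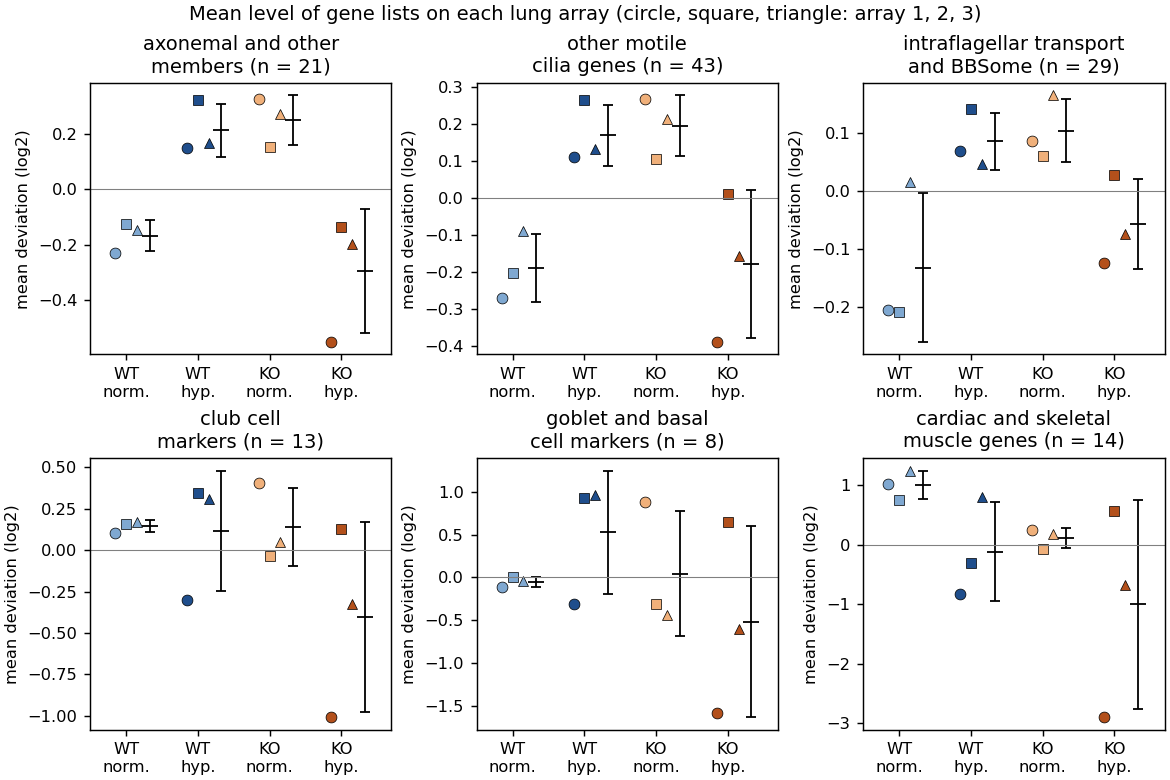
Mean log2 deviation from the 12-array mean (y axis) of 6 gene lists on each lung array by group (x axis), with circle, square and triangle for arrays 1, 2 and 3, the bar for mean and SD (n = 3), and a separate range per panel. Ciliary lists are high in WT hypoxia and KO normoxia. KO hypoxia 1 is the lowest array in every panel except intraflagellar transport and BBSome, where it is the lowest of its own group only.

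Ciliary genes outside the set were counted in the same way. Of 43 other motile cilia genes tested, 8 rose and 0 fell in wild-type hypoxia, against 7.48% and 4.32% of all genes. In knockout hypoxia 0 rose and 11 fell, against 4.96% and 3.82%. In room air 4 were higher and 0 lower in the knockout, against 4.09% and 2.96%. The median changes were 0.32, -0.43 and 0.43, beside -0.00, 0.03 and -0.02 over all genes tested. For other motile cilia genes the falls in the knockout numbered 2 without KO hypoxia 1 (median -0.28), 3 without KO normoxia 1 (median -0.38) and 0 without both (median -0.21), and 2 to 14 on leaving out each array in turn. The rises in wild type numbered 3 without WT normoxia 1 and 3 to 12 on leaving out each array, and the room air calls 0 to 9. Calls over all genes, in either direction, changed too. In the knockout they were 646 without KO hypoxia 1, 697 without KO normoxia 1 and 453 without both, against 1104. On leaving out each array they were 890 to 1811 in wild type, against 1483, and 411 to 1238 in room air, against 886. In wild type Morn5 rose by 1.76 (SE 0.22, adjusted p = 0.000326), Zbbx by 0.84 and Nme7, a kinase-like protein of the axoneme, by 0.78, and Efhc2 was at least 1.68-fold higher. In the knockout the changes were -0.98 for Spata17, -0.88 for Ubxn10, -0.79 for Ttc29 and -0.78 for Nek5, of which Ubxn10 and Nek5 also passed without KO hypoxia 1. Nme5, of the radial spoke, passed in both genotypes, at 0.63 and -0.59, and lost the knockout call without KO hypoxia 1 (-0.38, adjusted p = 0.0925). For 0 of the 43 did the difference of the hypoxia effects pass in limma. An unadjusted p under 0.05 was reached by 31 of the 43, as by 1564 of all 12571 genes.

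The machinery that builds cilia gave counts of passing genes near those of all genes, while most of its changes had the signs of the axonemal genes. Of 8 dynein assembly factors, 1 rose in wild type (Zmynd10, by 0.91) and 1 fell in the knockout (Daw1, log2 change -0.66), against 7.48% and 3.82% of all genes. Of 29 intraflagellar transport and BBSome genes, which carry cargo in motile and primary cilia alike, 1 rose in wild type (Bbs9, by 0.46), 1 fell in the knockout (Bbs2, log2 change -0.63) and 1 was higher in the knockout in room air (Dync2li1, by 0.61). The shares of all genes were 7.48%, 3.82% and 4.09%, so these counts are no result about the lists. Daw1 and Bbs2 lost their calls without KO hypoxia 1 (adjusted p = 0.0931 and 0.0531). Of the 29, 26 changes were positive in wild type and 24 negative in the knockout, with medians of 0.24 and -0.16. Of the 8 assembly factors, 7 were positive in wild type and 5 negative in the knockout (medians 0.29 and -0.16). The difference of the hypoxia effects was negative for 27 of the 29 (median -0.415) and all 8 (median -0.454), and passed for none. An unadjusted p under 0.05 was reached by 13 of the 29 and 4 of the 8, as by 1564 of all 12571 genes.

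Cultured microvascular endothelial cells, which carry no motile cilia, held some of these transcripts. Of the 30 members with a probe, 20 were detected on none of the 6 PMVEC arrays, among them Mcidas, Myb and Tekt1. Foxj1, Rfx2, Rsph9, Mns1, Sntn and 1110017D15Rik were detected on all 6. Of the 10 that were tested, 0 passed with recombinant IL-4 in limma, against 1.67% of all genes, and 3 had an unadjusted p under 0.05. Rfx2 read 5.58, 5.73 and 5.74 with vehicle and 5.97, 6.16 and 6.08 with recombinant IL-4, groups that did not overlap (change 0.39, SE 0.11, adjusted p = 0.117). Mns1 read 7.73, 7.66 and 7.57 with vehicle and 7.09, 7.18 and 7.31 with recombinant IL-4, also apart (change -0.46, SE 0.11, adjusted p = 0.0627). Ccno, detected on 3 of the 6 arrays, changed by 0.33 (SE 0.14, adjusted p = 0.386).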

How the data were processed

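The authors deposited non-normalized tables of probe intensity with a detection p-value beside each, and a table of log2 values, per the file headers. The submitters' processing notes name BeadStudio with no version. The chip of each array is not given in the sources used. In lung all 25697 probes of the log2 table matched the log2 of the deposited intensity within 0.02 after a shift per array, and in PMVEC 7582 did not, so the deposited intensities were used.

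Probes were named from the platform annotation. In R 4.3.3 with limma 3.58.1, background was estimated from the detection p-values (neqc, offset 16), arrays were quantile normalized and log2 taken, lung and PMVEC apart. Only probes detected (p under 0.05) on 3 or more arrays entered, and the probe of highest mean stood for a gene, giving 12571 genes in lung and 9017 in PMVEC. Group means were fitted with lmFit and eBayes over the 12 lung arrays, and p-values are two-sided and Benjamini-Hochberg adjusted over all genes. The 5 lung comparisons were hypoxia in each genotype, their difference, and the genotypes in room air and in hypoxia. The members, the gene lists and the tests were chosen with earlier results of these data known. Counts over genes detected on 3 or more arrays of each condition or genotype were added after seeing the data. Values on every array are given for the regulators, for the 14 passing members with the smallest adjusted p and for the brightest member of each structural group. In other lists, up to 4 passing genes of largest change per comparison are named, with Gmnc and Trp73 added for their role and Cby1 after its value was seen. The procedure was tested on simulated data. No identical arrays were found (correlation within lung groups, across probes, 0.988 to 0.994). The number of arrays, 3 a group, limits the precision.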

Additional observations from a re-analysis of the deposited data

Results flagged for a closer look

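The hypoxia effect on Fsip1 differed between the genotypes by a test of the difference itself: it was -1.49 on the log2 scale (knockout minus wild type, SE 0.20, limma adjusted p = 0.0415), with a rise on 3 of 3 WT hypoxia arrays and lower values on 3 of 3 KO hypoxia arrays than on any array of their own normoxia group. The adjusted p ranged from 0.0204 to 0.109 over the alternatives, and the difference from -1.61 to -0.81. The call was lost on leaving out each of 9 of the 12 lung arrays in turn. In WT normoxia Fsip1 lay near the lowest signal detected, so the size of its difference is uncertain.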

How the results depend on the processing

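Of the 27 member calls, 12 were kept under every alternative tried and 0 reversed. The calls of Mcidas in both genotypes are among the 12, and that of Dnah5 is among the 27. Both genes met the detection filter only through arrays where they were higher, so their calls are no separate support. Unless stated otherwise, the member counts below include them. In wild-type hypoxia 6 to 11 members passed as higher on leaving out each array in turn, against 9, and all genes called numbered 890 to 1811, against 1483. In knockout hypoxia 4 to 11 members passed as lower, against 11, all genes called numbered 646 to 1194, against 1104, and the median change over tested members was -0.608 to -0.332, against -0.489. With KO normoxia 1 and KO hypoxia 1 both left out, an alternative chosen after seeing the data, 3 members were lower, 453 genes were called and the median was -0.337. That median was -0.317 with the authors' log2 table and -0.364 with array weights, which called 1710 genes. Counting only members detected on 3 or more arrays of each condition, also chosen after seeing the data, 1 member was higher in knockout hypoxia in place of 2.

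For the difference of the hypoxia effects, where 1 member and 2 genes passed, leaving out each array gave 0 to 8 members, 0 to 201 genes and medians of -1.01 to -0.761, against -0.896. Members and genes called were 8 and 74 with an offset of 50 (median -0.771), 5 and 27 with median scaling, 5 and 32 with the authors' log2 table (median -0.712), 0 and 0 without a filter, 8 and 214 with array weights, and 0 and 1 without both arrays named above. For the genotypes in room air, leaving out each array gave 1 to 6 members higher, against 4, and 411 to 1238 genes, against 886. Genes called were 415 with only the groups compared, 1776 with array weights and 442 without both arrays. For the genotypes under hypoxia, leaving out each array gave 0 to 2 members lower, against 0, 3 to 38 genes, against 7, and medians of -0.61 to -0.347, against -0.484. The 2 members passed without KO normoxia 1, and 1 without KO normoxia 3. Genes called were 17, 14, 20 and 27 with the offset of 50, median scaling, the authors' log2 table and only the groups compared. Array weights gave 45 genes and 2 members lower, and leaving out both arrays gave 26 genes and a median of -0.355. With recombinant IL-4, 1 member, Mns1, passed with the offset of 50, against 0. Where a count changed with a setting, the cause was not tested.

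No paired analysis was possible because the labels number the arrays in one run and give the groups of lung compared no shared replicate numbers. The number of arrays, 3 a group, and signals near background for Mcidas, Dnah5 and Ccdc40, and for Fsip1 in WT normoxia, limit the precision.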
